A study of Mus musculus with 4 samples.

Results

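Notch1, Notch2, Notch3, Dll1, Jag1, Lfng, Rbpj, Maml1, Maml2 and Maml3 are 10 core genes of the Notch pathway, and WT1 peaks at and around them were examined in late fetal mouse kidneys. The genes were chosen by name, as receptors, ligands, a ligand-response modifier and nuclear partners of Notch, from 21887 protein-coding genes. Every peak whose midpoint lay in the gene or within 50 kb of it was taken. The study used chromatin immunoprecipitation and sequencing (ChIP-seq) on microdissected kidneys of wild-type embryos at embryonic day 18.5, on a mixed background of C57Bl6 crossed with B6DBA/F1. There were 2 samples precipitated with the C-19 antibody against WT1, a zinc-finger transcription factor of nephron progenitors and podocytes, and 2 precipitated with IgG. The WT1 samples came from independent experiments, each with its own peak list. No file of the IgG samples was used here. Whole kidneys hold many cell types, so a peak cannot be assigned to one of them.

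In Notch signalling a ligand on one cell (Delta-like or Jagged) binds a Notch receptor on its neighbour, the receptor is cut by membrane proteases, and its intracellular part moves to the nucleus. There it joins the DNA-binding protein RBPJ and a Mastermind-like coactivator (MAML) to switch on target genes such as those of the Hes and Hey families. In the developing kidney the pathway is known for its role in patterning the early nephron, above all its proximal segments, with Notch2 as the main receptor.

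WT1 replicate 1 held 53132 peaks and WT1 replicate 2 held 57641. The authors' value for each peak, at most 0.0499 in both lists, was taken as a p or q value and is called the significance value. Because the lists differ in scale, a peak is also given by its rank, as a percentage of its own list, with the strongest peak near 0. A table of 17234 regions found in both replicates carries an irreproducible discovery rate (IDR), a measure of how consistently a region ranked in both. Regions with an IDR of at most 0.05 are called reproducible. There were 4411 of them in the genome. Read depth behind a peak is unknown, and with 2 samples of 1 group no test between samples was made. Coordinates are mm10 and start sites are those of RefSeq on GRCm38.p6, the same build.

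Start sites with a peak at the promoter were few, and their sequences are shown first because they tie a peak to a gene most directly. Promoters here are the 300 bases from 250 before to 50 after a start site, as given by RefSeq for GRCm38.p6. Of the 10 Notch genes, only Dll1 had a promoter that overlapped a reproducible region, against 2.66% of the 17492 protein-coding genes with a promoter entry. Dll1 was also the only one with a promoter overlapping a replicate 1 peak, against 6.80% of those genes. Dll1, Lfng and Maml3, 3 of 10, had one overlapping a replicate 2 peak, against 12.1%. In the lines that follow, each promoter is written 5′ to 3′ on the strand of its gene, with the bases covered by a peak in capitals. The Lfng capitals come from 2 peaks of replicate 2 and the Maml3 capitals from 1; the Dll1 capitals are the reproducible region.
Dll1 promoter, chr17:15375774-15376073, minus strand: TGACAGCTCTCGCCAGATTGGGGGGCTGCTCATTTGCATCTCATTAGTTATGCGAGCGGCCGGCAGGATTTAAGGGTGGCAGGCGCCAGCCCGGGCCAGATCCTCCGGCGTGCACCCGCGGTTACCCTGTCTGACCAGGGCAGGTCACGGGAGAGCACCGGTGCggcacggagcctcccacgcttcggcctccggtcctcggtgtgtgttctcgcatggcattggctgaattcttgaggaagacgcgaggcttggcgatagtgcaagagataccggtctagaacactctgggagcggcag
Lfng promoter, chr5:140607091-140607390, plus strand: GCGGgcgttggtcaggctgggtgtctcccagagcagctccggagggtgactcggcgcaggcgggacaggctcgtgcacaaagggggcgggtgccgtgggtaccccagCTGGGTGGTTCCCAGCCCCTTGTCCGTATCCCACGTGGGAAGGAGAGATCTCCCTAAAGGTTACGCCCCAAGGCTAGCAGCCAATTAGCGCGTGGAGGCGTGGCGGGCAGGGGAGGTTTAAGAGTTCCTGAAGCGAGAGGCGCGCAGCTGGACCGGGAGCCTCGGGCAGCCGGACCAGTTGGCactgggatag
Maml3 promoter, chr3:52104957-52105256, minus strand: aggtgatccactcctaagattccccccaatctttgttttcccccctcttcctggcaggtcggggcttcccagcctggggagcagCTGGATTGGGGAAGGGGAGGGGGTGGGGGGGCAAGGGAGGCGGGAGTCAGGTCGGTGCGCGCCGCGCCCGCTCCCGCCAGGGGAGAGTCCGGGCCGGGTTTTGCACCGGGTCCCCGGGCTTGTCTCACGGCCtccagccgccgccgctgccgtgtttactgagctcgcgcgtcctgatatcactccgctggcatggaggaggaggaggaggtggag

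The promoters of the 10 genes (13 entries) were searched on both strands for short WT1-type and RBPJ-type motifs. The Dll1 promoter above holds GCGTGGGAG, a known WT1-binding element, on the strand opposite to the gene, reaching to 76 bases before the start site. It lies outside the reproducible region, with its nearest base 11 positions from the edge base of that region. This 9-letter motif is in 0.472% of all 32851 promoter entries and in 5.27% of the 626 that overlap a reproducible region. The Lfng promoter holds GTGGGAA, the core of RBPJ sites, 109 bases before the start site and inside the replicate 2 peak. That motif is in 6.38% of all promoters and in 7.51% of the 626. The Notch3 promoter overlaps no peak and holds GCGGGGGCG, an EGR-type motif that WT1 can bind, on the gene strand 74 bases before the start site. It is in 2.91% of all promoters and in 12.3% of the 626. The 3 matches are shown with 10 bases on each side, on the gene strand, with the motif (for Dll1 its reverse complement) in capitals.
Dll1, chr17:15375881-15375909, minus strand: ggcacggagcCTCCCACGCttcggcctcc
Lfng, chr5:140607222-140607248, plus strand: cgtatcccacGTGGGAAggagagatct
Notch3, chr17:32166946-32166974, minus strand: cgggcaggggGCGGGGGCGctcagagccg

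The looser core GTGGGNG was in 7 of the 13 promoter entries and in 31.6% of all promoters. Among the 626 that overlap a reproducible region its share was 53.7%. At Dll1 its match in the promoter with the region is the same site as GCGTGGGAG. TCCTCCTCC was in the Maml3 promoter alone among the 13, as overlapping matches after the start site and outside the peak. It was in 3.03% of all promoters and in 10.4% of the 626. A match describes letters in the sequence and is not a measured binding site.

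Across the 10 genes, 9 had at least 1 reproducible region in the gene or within 50 kb, against 26.1% of all protein-coding genes. Rbpj was the exception. Inside the gene itself 8 of 10 had one, against 7.95% of all genes. With regions of any IDR the count was again 9 of 10, against 57.0%. The Notch genes lay in windows of 108 to 518 kb, while the median window over all genes was 117 kb, so part of the comparison is one of unequal lengths. The genes themselves were 8.2 to 418 kb long. A longer gene has more room for a region, and the count inside the gene was not adjusted for length. Per 100 kb of window the median over the 10 genes was 1.15 reproducible regions, against a median of 0 and a 90th percentile of 0.945 over all genes. The genes were chosen with earlier results of these data known, and these counts are descriptions.

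**Figure D1:**
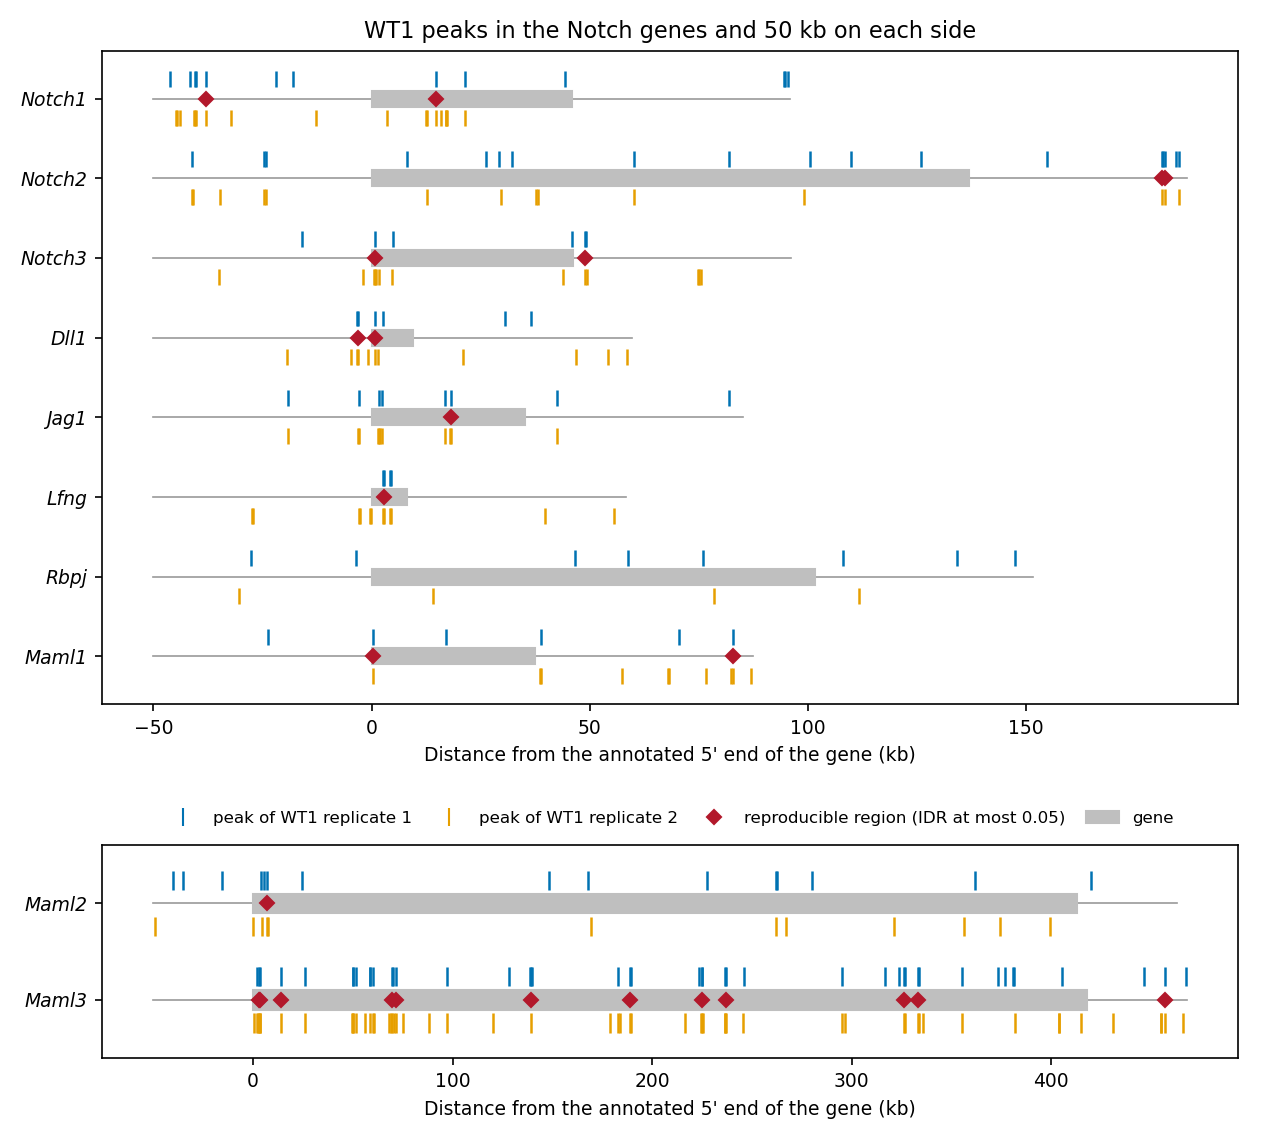
Peaks of WT1 replicate 1 (blue ticks), peaks of WT1 replicate 2 (orange ticks) and reproducible regions (red diamonds) along each Notch gene (grey box) and 50 kb on each side, by distance from the annotated 5′ end of the gene in kb. Maml3 carries 12 reproducible regions, the other genes carry 0 to 2.

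In all, 25 reproducible regions fell into the windows, and 12 of them belonged to Maml3. Without Maml3 there were 13. Of the 25 regions, 18 lay inside the gene, 2 upstream and 5 downstream of it. For 17 of them the nearest start site of any protein-coding gene in the promoter table was that of the Notch gene. Only 3 lay within 1 kb of such a start site (Dll1, Maml1 and Notch3) and 7 within 5 kb. Widths ran from 106 to 995 bp with a median of 343 bp, against a median of 372 bp over all reproducible regions.

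Replicate 1 had 128 peaks in the 10 windows, of which 63 (49.2%) overlapped a peak of replicate 2. Replicate 2 had 161, of which 63 (39.1%) overlapped a peak of replicate 1. Over the whole lists these shares were 34.1% and 30.8%. Maml3 alone held 44 of the replicate 1 peaks and 56 of the replicate 2 peaks, with 28 shared in each. The pooled shares thus rest in large part on Maml3. Of the 58 regions of the overlap table in the windows, 43.1% were reproducible, against 25.6% in the table as a whole. Maml3 held 25 of the 58, and 12 of its 25 were reproducible.

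**Figure D2:**
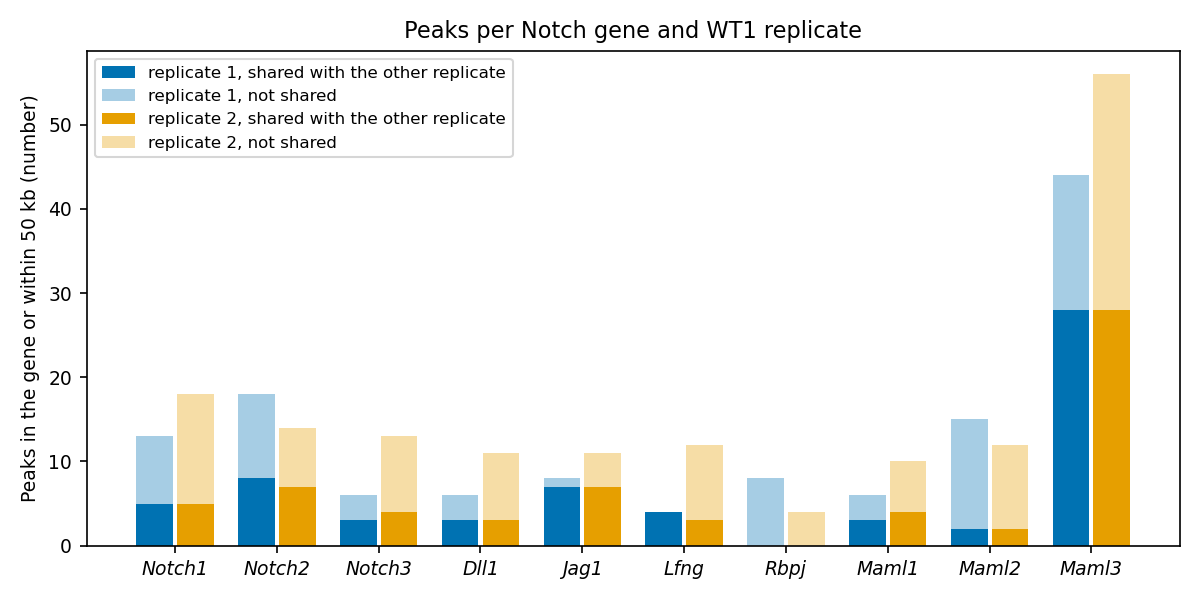
Number of peaks in each Notch gene or within 50 kb of it in WT1 replicates 1 (blue) and 2 (orange), with peaks that overlap a peak of the other replicate in full colour and the others pale. Maml3 had 44 and 56 peaks, 28 of them shared in each replicate, and at Rbpj none of the 8 and 4 peaks was shared.

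The receptor genes Notch1, Notch2 and Notch3 encode the single-pass membrane proteins that ligands activate. Each had 2 reproducible regions, placed differently. Of all protein-coding genes 8.37% had at least 2.

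Notch1 (chromosome 2, 26457902 to 26503822, minus strand) held 1 region inside the gene, at 26488975 to 26489219, 14.7 kb past the start site. Its IDR was 0.000414, with significance values of 4.77e-09 in replicate 1 and 2.09e-14 in replicate 2. The other lay 37.9 kb upstream, at 26541430 to 26542039 (IDR 0.00207), with values of 1.41e-05 in replicate 1 and 5.14e-11 in replicate 2. That site lies between Notch1 and Egfl7, which encodes a secreted protein of endothelial cells, whose nearer end was 39.3 kb away. Both replicates also had peaks beside it, in regions 40.2 and 40.5 kb upstream that were not reproducible (IDR 0.365 and 0.518).

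Notch2 (chromosome 3, 98013538 to 98150367, plus strand) had no reproducible region inside the gene or within 10 kb. Its 2 regions stood close together downstream, 44.4 and 45.1 kb past the gene end. The stronger, at 98195378 to 98195591, had an IDR of 8.46e-05 and ranked in the first 1.47% of replicate 1 and 2.33% of replicate 2. The other, at 98194565 to 98195031, had an IDR of 0.00227. Both lay nearer to Reg4, a gene of the C-type lectin family, with its start site 26.7 and 27.4 kb away, than to Notch2. Within the 137 kb of Notch2, replicates 1 and 2 had several peaks each, and the single region found in both, 60.2 kb past the start site, had an IDR of 0.528.

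Notch3 (chromosome 17, 32120820 to 32166896, minus strand) had a region at each end. One was 841 bp past the start site, at 32165871 to 32166228 (IDR 0.00565), with values of 4.76e-07 in replicate 1 and 3.12e-10 in replicate 2. Replicate 2 split this site into 2 peaks and had a further, weaker one 0.474 kb past the start site that replicate 1 lacked. The other region was 2.76 kb beyond the 3′ end of the gene, at 32118004 to 32118109 (IDR 0.00322). At 106 bp it was the narrowest of the 25, with the same first and last base in both replicates.

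Among the ligands, Dll1 (chromosome 17, 15367354 to 15376932, minus strand), which encodes Delta-like 1, had 2 regions. The first, at 15375910 to 15376165, is the one printed in capitals in its promoter, centred 215 bp before the inner of its 2 listed start sites and so within the annotated gene. Its IDR was 4.57e-05, with significance values of 1.20e-10 in replicate 1 and 4.47e-21 in replicate 2, and it ranked in the first 2.34% and 2.05% of the lists. The edges found by the replicates were 15375920 and 15376165 in replicate 1 and 15375910 and 15376164 in replicate 2. The second lay 3.05 kb before the outer start site, at 15379875 to 15380093 (IDR 0.0136), with identical edges in both replicates. The outer promoter itself overlapped no peak. Dll1 had 1.83 reproducible regions per 100 kb of window, a density reached by 3.31% of all genes.

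Jag1 (chromosome 2, 137081451 to 137116520, minus strand), which encodes the ligand Jagged 1, had 7 regions of the overlap table but a single reproducible one. It lay inside the gene, 18.2 kb past the start site, at 137098176 to 137098428, with an IDR of 0.0418, close to the threshold, and among the 4411 strongest peaks of replicate 2 alone Jag1 had 0. Its significance values were 8.69e-05 in replicate 1 and 6.23e-05 in replicate 2, and its rank was 7.42% in replicate 1 and 13.1% in replicate 2. The next region, 1.74 kb past the start site at 137114635 to 137114927, had an IDR of 0.0515 and so fell just outside, with values of 0.00261 in replicate 1 and 2.5e-07 in replicate 2. Replicate 2 had a further peak at 137114355 to 137114613 (3.95e-06) in the gap between this region and the next that replicate 1 lacked.

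Lfng (chromosome 5, 140607341 to 140615545, plus strand) encodes lunatic fringe, a glycosyltransferase that adds sugars to Notch and changes its response to ligands. It had 3 regions inside its 8.21 kb, of which the middle one was reproducible, at 140610163 to 140610336, 2.91 kb past the start site (IDR 0.0164). Its values were 8.01e-04 in replicate 1 and 1.35e-10 in replicate 2, ranks of 11.1% and 5.08%. The neighbours had an IDR of 0.201 and 0.547. Among the 4411 strongest peaks of replicate 1 alone, Lfng had 0. The peak over the Lfng start site shown above was found in replicate 2 alone, at 0.00479, a rank of 30.1%.

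Rbpj (chromosome 5, 53555779 to 53657445, plus strand) encodes the DNA-binding protein at the end of the pathway. It had no region in the overlap table. Replicate 1 had 8 peaks in the window and replicate 2 had 4, and none overlapped, with the closest pair 2.33 kb apart. The lowest significance values were 0.0106 in replicate 1, a rank of 26.3%, and 0.00651 in replicate 2, a rank of 34.6%. None of the 12 peaks lay at either of the start sites listed for the gene. Of the 5246 protein-coding genes with at least 12 peaks over both lists, 2.23% also had no region in the overlap table, a comparison chosen after the Rbpj values were seen.

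The Mastermind-like genes encode the coactivators that complete the nuclear Notch complex, and they differed widely. Maml1 (chromosome 11, 50255634 to 50293131, minus strand) had 2 regions. The weaker lay inside the annotated gene but 384 bp before the listed start site, at 50292588 to 50292851, beginning 2 bases beyond the promoter window, with an IDR of 0.0462 and values of 0.00261 in replicate 1 and 1.14e-05 in replicate 2. The stronger, at 50210071 to 50210457 (IDR 6.58e-06), lay 45.4 kb beyond the 3′ end of Maml1, inside Sqstm1 and 0.556 kb from a start site of that gene, which encodes the autophagy receptor p62. Besides Maml1, 5 protein-coding genes lay within 50 kb of it.

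Maml2 (chromosome 9, 13296561 to 13709533, plus strand) and Maml3 (chromosome 3, 51687320 to 52105319, minus strand) are of nearly equal length, at 413 and 418 kb. Maml2 had 15 peaks in replicate 1 and 12 in replicate 2, of which 2 in each were shared, and 1 reproducible region. It lay 5.45 kb past the first listed start site, at 13303201 to 13303623 (IDR 0.0125), with identical edges in both replicates. Among the 4411 strongest peaks of replicate 1 alone, Maml2 had 0. Of the 330 genes with a window at least as long as that of Maml2, 43.0% had at least 1 reproducible region.

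Maml3 had 12 reproducible regions in its window, more than any other of the 21887 genes, and 11 of them were inside the gene. The next highest count was 10, reached by 3 genes, and the next highest inside a gene was 10. The median over the 318 genes with a window at least as long as that of Maml3 was 0. Per 100 kb Maml3 had 2.32 reproducible regions and Maml2 0.195. A density of at least 2.32 was reached by 1.65% of all genes and the count of 12 by no other gene. Over all genes, most of which have shorter windows, Maml3 thus stood out more by number than by density. Its density was not ranked among windows of similar length.

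**Figure D3:**
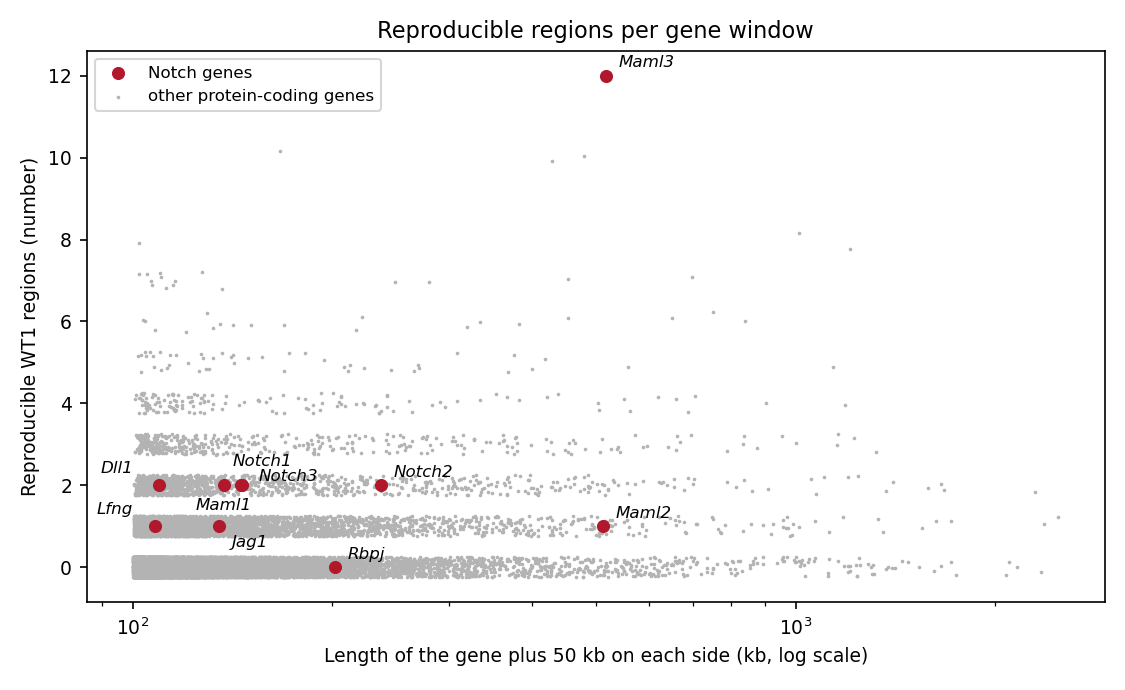
Number of reproducible regions in the gene or within 50 kb against the length of that window in kb (log scale) for the 10 Notch genes (red) and all other protein-coding genes (grey, moved by up to 0.25 up or down so that points do not hide each other). Maml3 is the highest point at 12, and Maml2, with a window of almost the same length, is at 1.

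The strongest of the Maml3 regions, at 52102290 to 52102988, was 2.37 kb past the start site, with an IDR of 1.01e-06. Its significance values were 9.65e-48 in replicate 1 and 2.37e-73 in replicate 2, within the first 0.128% and 0.206% of the lists. A second one, at 52101836 to 52102018, was 0.712 kb from it (IDR 0.00139). Another was 13.5 kb past the start site, at 52091381 to 52091689 (IDR 0.0203).

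Deeper in the gene, the widest region of the set at 995 bp, 51915794 to 51916788, was 189 kb past the start site (IDR 1.38e-06), with values of 2.74e-34 in replicate 1 and 7.47e-71 in replicate 2. Near 70 kb a pair at 52033767 to 52034080 and 52035272 to 52035817 had IDRs of 1.29e-05 and 7.49e-05. The region at 51965751 to 51966348, 139 kb past the start site, had an IDR of 2.35e-05. The other 4 inside the gene, 225, 237, 326 and 333 kb past the start site, had IDRs of 0.00263, 0.0011, 0.0102 and 0.0125. For these 4 the nearest start site was that of Mgst2, at 219, 207, 118 and 111 kb. Among the regions inside the gene, the lowest IDRs were thus spread from its 5′ end to its middle and not gathered at the start site.

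The 12th region, at 51648115 to 51648773 (IDR 2.29e-06), lay 38.9 kb beyond the 3′ end of Maml3 and inside Mgst2, a microsomal glutathione S-transferase gene, 12.7 kb from its start site. Neighbouring Maml3 regions were 0.712 to 124 kb apart with a median of 35.9 kb. The Maml3 promoter printed above overlapped a weak peak of replicate 2 alone (0.0454, a rank of 95.1%), so the start site itself had no reproducible region.

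**Figure D4:**
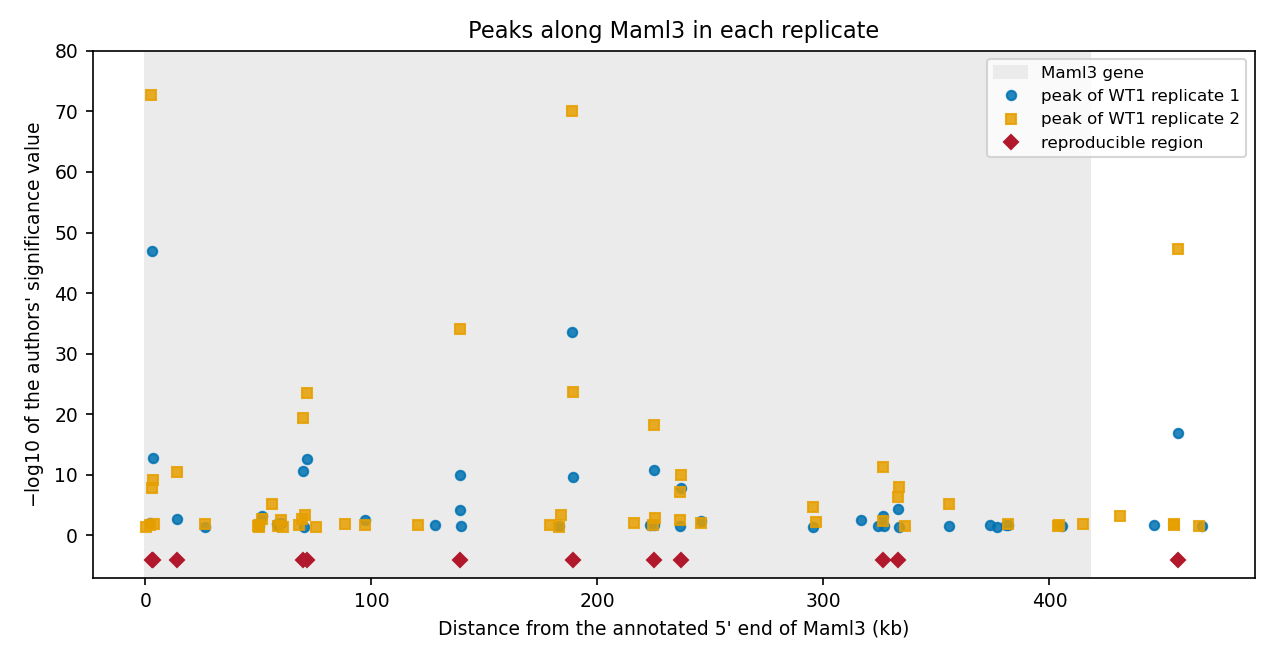
Peaks along Maml3 in WT1 replicate 1 (blue circles) and WT1 replicate 2 (orange squares) by distance from the annotated 5′ end in kb, with −log10 of the significance value upwards; red diamonds mark the 12 reproducible regions. The peak with the smallest significance value in each replicate (9.65e-48 and 2.37e-73) is at the 5′ end, followed inside the gene by the one 189 kb past the start site.

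The significance value was lower in replicate 2 for 24 of the 25 regions, the exception being the Maml3 region at 52101836 to 52102018, but by rank within the list 15 stood higher up in replicate 2 and 10 in replicate 1. The lowest-placed reproducible region reached a rank of 14.5% in replicate 1 (the start site region of Maml1) and 13.1% in replicate 2 (Jag1). The first base was identical in both replicates for 13 of the 25 and the last base for 8, so edges are not independent positions.

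**Figure D5:**
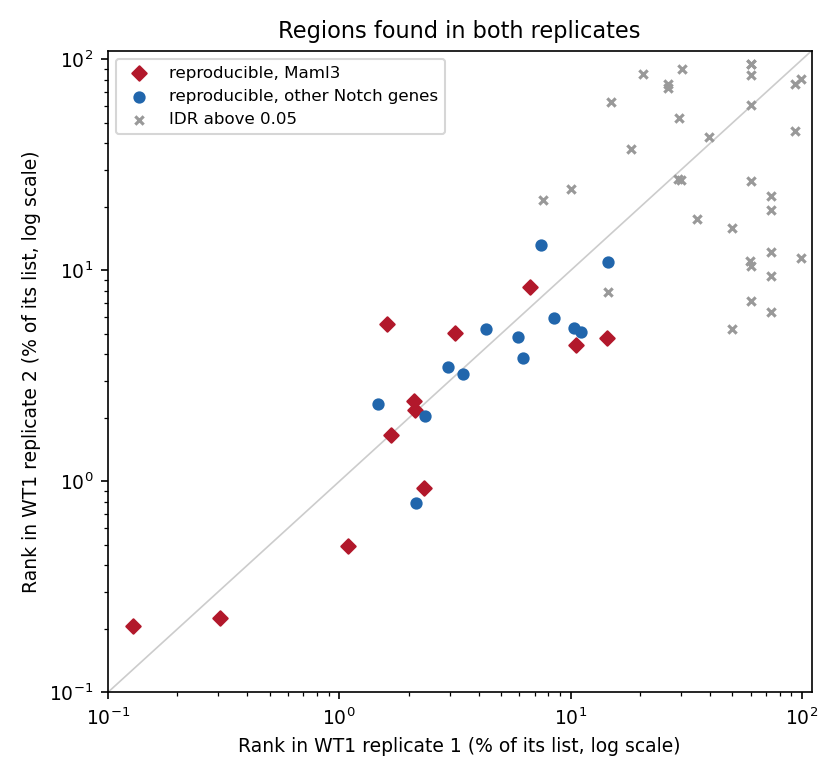
Rank of each of the 58 regions of the overlap table as a percentage of the list of WT1 replicate 1 and of WT1 replicate 2 (both log scale, strongest near the lower left), for reproducible regions of Maml3 (red diamonds) and of the other Notch genes (blue circles) and for regions with an IDR above 0.05 (grey crosses). The 25 reproducible regions reach 14.5% in replicate 1 and 13.1% in replicate 2, and the smallest ranks, 0.128% and 0.206%, belong to 1 region of Maml3.

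Beyond the 10 core genes, 38 other genes of the pathway were counted by the same rule, and 24 of them (63.2%) had a reproducible region in the gene or within 50 kb, against 26.1% of all protein-coding genes. Inside the gene 8 of 38 had one, against 7.95%, also without adjustment for gene length. Among effectors, the Hes and Hey transcriptional repressors that Notch switches on, 5 of 5 had one, and so did the 1 further receptor gene, Notch4. The count was 3 of 4 among the other ligands, 4 of 5 among nuclear cofactors and 8 of 11 among genes for receptor trafficking and turnover. Of the 8 proteases and protease subunits that cut the receptor 2 had one, and of the 4 sugar-adding enzymes 1.

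Among the effectors, Hes1 had 8 regions, none inside the gene, with the lowest IDR (4.43e-07) 31.2 kb outside it. Its 7.81 regions per 100 kb were the highest density of all protein-coding genes. Heyl had 3 regions, the strongest inside the gene (8.29e-07), Hes5 had 1 lying 18.6 kb outside it (0.000222), and Hey2 had 1 lying 0.222 kb past its start site (0.000278). Mfng, which encodes manic fringe, had 3 regions outside the gene (lowest IDR 7.55e-07, 23.3 kb away). Dlk1, a non-canonical ligand gene, had 2 (6.26e-06, 27.3 kb outside).

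Of the protease genes, Aph1b, a gamma-secretase subunit gene, had 2 regions (lowest IDR 3.14e-07, 41.6 kb outside). Dtx2 and Dtx4, genes of Deltex ubiquitin ligases, had 1 each, 19.2 kb outside Dtx2 (7.1e-07) and inside Dtx4 (0.000106). Neurl1a, which encodes a ubiquitin ligase of the Neuralized family, had 2, and the 1 inside the gene had the lowest IDR (1.69e-06). Kat2b, a histone acetyltransferase gene, had 1 lying 0.704 kb past its start site (0.000741). For regions outside these genes, other genes in between were not examined.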

How the data were processed

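ChIP-seq was carried out on kidneys of mouse embryos with a WT1 antibody (2 samples) or IgG (2 samples); files of the WT1 samples were used. Per the labels' protocols, restriction enzymes (AluI or HaeIII, each with MseI) fragmented the DNA before 18 rounds of PCR, so peak edges can follow their sites. Per the submitters' processing notes mm10 was the genome build. Which aligner and peak caller were run, and whether IgG reads entered, was not given in the sources used here. For each peak the value deposited by the authors is read as a p-value or q-value from its range, and that of the table of both replicates as an IDR from its name and range; these are the authors' own values.

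Peaks were placed by midpoint, 1-based, and called shared at an overlap of at least 1 bp (Python 3.11.15, pandas 2.3.3). Genes and promoters are RefSeq, GRCm38.p6; all 10 genes and all 38 further genes matched by symbol. The genes, lists, roles and alternatives were chosen with earlier results of these data known. Every one of the 10 genes is named; of the 38, the 12 with the lowest IDR, of which 1 is not reported here; and neighbours that hold a region or lie nearer to it. Motifs were GCGTGGGAG, GCGGGGGCG, GTGGGNG, TCCTCCTCC and GTGGGAA. Counting functions were tested on simulated data. Read depth is unknown, and exons were not used here.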

Additional observations from a re-analysis of the deposited data

How the results depend on the processing

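The count of Notch genes with a reproducible region, 9 of 10, stayed between 6 (IDR of 0.01) and 9 under the 8 alternatives tried; replicate 1 alone gave 7 and replicate 2 alone 8, each taken as its 4411 strongest peaks. At an IDR of 0.01 Jag1, Lfng and Maml2 had no region left, and 19.6% of all protein-coding genes had one. From replicate 2 alone Jag1 had 0, from replicate 1 alone Lfng and Maml2 had 0 and Dll1 had 1, and from either alone Maml1 had 1. The number of regions in their windows, 25, became 58 with no IDR threshold and 13 without Maml3 (an alternative chosen after seeing the data); from single replicates it was 22 and 29. The share of all protein-coding genes, 26.1%, became 13.6% with a 10 kb window, 7.95% for the gene body alone and 57.0% with no IDR threshold, and was 24.7% and 26.2% from single replicates. The count of other pathway genes, 24 of 38, became 12 with a 10 kb window, 8 for the gene body alone and 14 at an IDR of 0.01, and was 17 and 21 from single replicates. Requiring an overlap of 50% of each peak gave a shared part of 39.8% of the replicate 1 peaks, against 49.2% at 1 bp. Of 80 counts for single Notch genes, 54 stayed within 1.5 times the main value and 26 did not; Rbpj had 0 under every alternative run, and Notch2 had 0 with a 10 kb window. Other windows and IDR thresholds let fewer or more regions enter by construction; for the single replicates and the overlap rule the cause was not tested. No paired analysis was possible because every value comes from WT1 samples, a single group; IgG samples were not analysed here. Depth limits are unknown, since the files hold no read counts.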

Other observations

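Several peaks high in the list of replicate 2 near the Notch genes overlapped no peak of replicate 1. The strongest lay 40.9 kb upstream of Notch2 (chromosome 3, 97972451 to 97972788) with a significance value of 7.35e-08, a rank of 7.24% of its list. Directly beside it was a region found in both replicates, at 97972142 to 97972421, with an IDR of 0.531. The midpoint of that region was 5.26 kb from the gene Gm5544 and 41.3 kb upstream of Notch2. Others were inside Jag1, 2.04 kb past its start site (3.95e-06), inside Maml3, 55.8 kb past its start site (7.81e-06), 39.1 kb beyond the 3′ end of Maml1 (2.25e-05) and 19.3 kb upstream of Dll1 (5.23e-05, a rank of 12.7%). For these other peaks, genes that may lie nearer were not examined. The lowest value among unshared peaks of replicate 1 in these windows was 0.00266, at Maml2 and Maml3, a rank of 15.0% of that list.

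Peak edges often coincided with the restriction sites of the library preparation. Of 1884 edges of replicate 1 peaks that fell inside promoter sequence, 33.4% had an AluI, HaeIII or MseI site within 4 bases. Of 3205 edges of replicate 2 peaks 27.4% did, against 8.56% of evenly spaced promoter positions. Most were AluI sites, at 456 edges in replicate 1 and 560 in replicate 2. MseI sites were at 125 and 189 edges, and HaeIII sites at 51 and 134. The share of promoter positions was not split by enzyme, so an excess for each enzyme was not tested. Among the promoters printed here, the replicate 2 peak over the Lfng start site began at 140607198, inside an AluI site at 140607196 to 140607199, and the Maml3 promoter peak ran from a HaeIII site (52105041 to 52105044) to an AluI site (52105171 to 52105174). At Dll1 no such site lay within 4 bases of the edge at 15375910, and the nearest one below it was a HaeIII site at 15375884 to 15375887. The GCGTGGGAG match lies between that site and the edge. Whether the precipitated DNA reached it was not tested.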
